A study of Homo sapiens with 16 samples.

Results

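The 9 genes described here are transcriptional targets of NRF2 and parts of the thioredoxin system, measured in 8 human B-cell lines treated with AFN700 or with the solvent DMSO. They are TXNRD1, TXN, HMOX1, NQO1, GCLM, GCLC, SRXN1, SLC7A11 and ME1, 9 of the 19775 genes that had a probe set of their own on the array. A probe set is the group of short oligonucleotides that stands for one transcript, and it was kept where the platform annotation gives it exactly 1 of these symbols. This rule found 21 probe sets for the 9 genes, and the probe set with the highest mean intensity stood for its gene. A gene was tested if its intensity exceeded the 60th percentile of its array, between 21.5 and 31.7 units, on at least 2 arrays. All 9 genes and 18 of their probe sets met this filter. HMOX1 and ME1 met it through some lines only, 5 and 4 of the 8 DMSO arrays.

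Treated cells received AFN700, which inhibits the kinase IKKbeta, at 5 uM for 20 hours, and the control cells received 0.025% DMSO for the same time. The labels call all 8 lines mantle cell lymphoma and class REC-1 and SP49 as sensitive to "stn" and ibrutinib. The other 6, labelled insensitive, are JVM-13, JVM-2, Maver-1, Z-138, GRANTA-519 and HBL-2. Each line gave 1 array per treatment, 16 in all, so the cell line is the replicate and a value of 1 line has no error of its own. The treated JVM-13 array is titled AFN700 but its treatment field reads AFN701, and GRANTA-519 grew in DMEM where the other lines grew in RPMI.

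NRF2, encoded by NFE2L2, is a transcription factor that KEAP1 holds in check by directing it to degradation. When electrophiles or oxidants modify KEAP1, NRF2 accumulates, pairs with a small MAF protein and binds antioxidant response elements, while BACH1 competes for the same sites. Its targets supply reduced thioredoxin and glutathione, the NADPH that both need, and enzymes that dispose of quinones and heme. Thioredoxin is also known to keep a cysteine of NF-kB in the reduced form that DNA binding needs. IKKbeta is the kinase that releases NF-kB by marking its inhibitor for degradation.

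The promoter windows of these genes are shown because the antioxidant response element is the DNA sequence through which NRF2 acts. RefSeq windows of GRCh38.p14, 250 bases before to 50 after an annotated transcription start, were found for 7 of the 9 genes, with 8 windows in all because TXNRD1 has 2. The element's core was searched on both strands as TGACNNNGC, where N is any base. It was present in 4 of the 8 windows, which belong to TXNRD1, ME1 and GCLM, and in 13.3% of all 35116 windows. The windows with a match and, for contrast, the window of TXN are given 5′ to 3′ on the gene's strand, with the matching bases in capitals.
TXNRD1, chr12:104215529-104215828, plus strand: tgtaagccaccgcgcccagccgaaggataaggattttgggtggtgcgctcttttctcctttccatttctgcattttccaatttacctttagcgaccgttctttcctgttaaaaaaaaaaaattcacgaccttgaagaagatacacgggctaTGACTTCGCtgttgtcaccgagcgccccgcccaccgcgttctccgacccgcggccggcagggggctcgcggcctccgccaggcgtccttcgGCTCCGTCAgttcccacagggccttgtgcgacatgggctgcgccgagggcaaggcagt
TXNRD1, chr12:104286782-104287081, plus strand: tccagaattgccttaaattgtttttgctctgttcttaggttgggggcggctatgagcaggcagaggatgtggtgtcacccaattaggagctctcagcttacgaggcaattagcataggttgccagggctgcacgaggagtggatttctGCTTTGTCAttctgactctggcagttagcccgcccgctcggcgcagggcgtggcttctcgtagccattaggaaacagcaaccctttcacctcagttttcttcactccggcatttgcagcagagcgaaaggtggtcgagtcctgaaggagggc
ME1, chr6:83431002-83431301, minus strand: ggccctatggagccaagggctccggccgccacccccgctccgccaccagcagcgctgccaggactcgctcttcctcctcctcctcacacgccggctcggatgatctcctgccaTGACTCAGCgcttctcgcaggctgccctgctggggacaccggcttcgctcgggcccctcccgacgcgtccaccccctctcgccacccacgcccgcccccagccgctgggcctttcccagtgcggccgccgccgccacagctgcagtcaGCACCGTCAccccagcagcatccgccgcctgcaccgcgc
GCLM, chr1:93909381-93909680, minus strand: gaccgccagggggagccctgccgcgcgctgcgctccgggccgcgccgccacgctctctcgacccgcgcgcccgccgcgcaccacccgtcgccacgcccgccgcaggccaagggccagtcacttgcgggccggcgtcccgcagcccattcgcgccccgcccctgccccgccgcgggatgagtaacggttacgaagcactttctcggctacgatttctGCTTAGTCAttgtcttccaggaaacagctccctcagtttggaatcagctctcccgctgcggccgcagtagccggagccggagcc
TXN, chr9:110256458-110256757, minus strand: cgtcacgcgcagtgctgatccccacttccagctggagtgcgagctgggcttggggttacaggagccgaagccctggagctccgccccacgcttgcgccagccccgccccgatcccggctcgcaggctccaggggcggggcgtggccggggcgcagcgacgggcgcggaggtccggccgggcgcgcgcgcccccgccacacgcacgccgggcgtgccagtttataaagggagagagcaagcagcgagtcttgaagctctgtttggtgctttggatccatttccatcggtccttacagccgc
The first TXNRD1 window holds TGACTTCGC on the gene's strand, with its first base at position -99 relative to the start, and TGACGGAGC on the opposite strand. The second TXNRD1 window holds TGACAAAGC on the opposite strand. In ME1 the match on the gene's strand, TGACTCAGC at position -137, includes TGACTCA, the classical AP-1 site, which 4.95% of all windows hold on either strand. A second match in ME1, TGACGGTGC, is on the opposite strand. GCLM has TGACTAAGC on the opposite strand at position -34. The windows of TXN, GCLC, NQO1 and SRXN1 hold no such letters, which says nothing of sequence outside them. A search of the same windows for the kappaB consensus found it in none of the 8, against 5.91% of all windows. A match is a run of letters and not a measured binding site.

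The intensities are MAS5 values as deposited, scaled so that each array has the same trimmed mean. B-cell markers were present throughout, with 9 of 9 measured markers above the 60th percentile on all 16 arrays. CCND1 and SOX11, which mark mantle cell lymphoma, were near 0 in JVM-13, at 2.3 and 0.3 with AFN700 and 4.8 and 1.4 with DMSO. In JVM-2, SOX11 was at 0.6 with AFN700 and 0.1 with DMSO, and CCND1 at 79.1 with AFN700 and 78.7 with DMSO. The summed intensity of 7 T-cell markers lay between 54.8 and 732 over the AFN700 arrays and between 34.6 and 514 over the DMSO arrays. One array differed from the rest: the median log2 level over the genes tested was 7.25 for JVM-13 with DMSO and between 7.82 and 8.02 for the others. RNA integrity, read from the actin 3′/5′ ratio, was least alike in HBL-2, at 16.7 with AFN700 and 1.90 with DMSO. In the sensitive line SP49 this ratio was 6.39 with AFN700 and 2.73 with DMSO, and in JVM-13 it was 3.43 with AFN700 and 2.01 with DMSO. The part of these differences in the responses was not tested. Values without HBL-2 and JVM-13 are given for the 9 genes, and for listed genes whose mean moved far, where they rest on these lines.

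The first question was whether the genes moved together when IKKbeta was inhibited. All 9 had a mean log2 difference below 0 over the 8 lines, where 37.1% of the 12305 genes tested did. Their median was -0.26, against 0.06 over all genes tested. None of the 9 passed the threshold of an adjusted p of 0.05 by limma, and neither did any other gene in the table (0% called, lowest adjusted p = 0.305). At an unadjusted p under 0.05, limma gave 1006 genes in either direction (8.18%), and TXNRD1 and TXN were among the 215 on the lower side (1.75%). Log2 differences are AFN700 minus DMSO on the log2(intensity + 3.3) scale throughout, so a negative value means a lower level with AFN700. Without JVM-13 the mean was below 0 for 8 of the 9 genes, GCLC being the exception at 0.09, where 43.5% of all genes had such a mean. The median of all genes was itself above 0 in HBL-2 (0.17) and JVM-13 (0.28). With this median difference subtracted within each line, the 9 means stayed below 0, as did those of 51% of all genes.

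**Figure D1:**
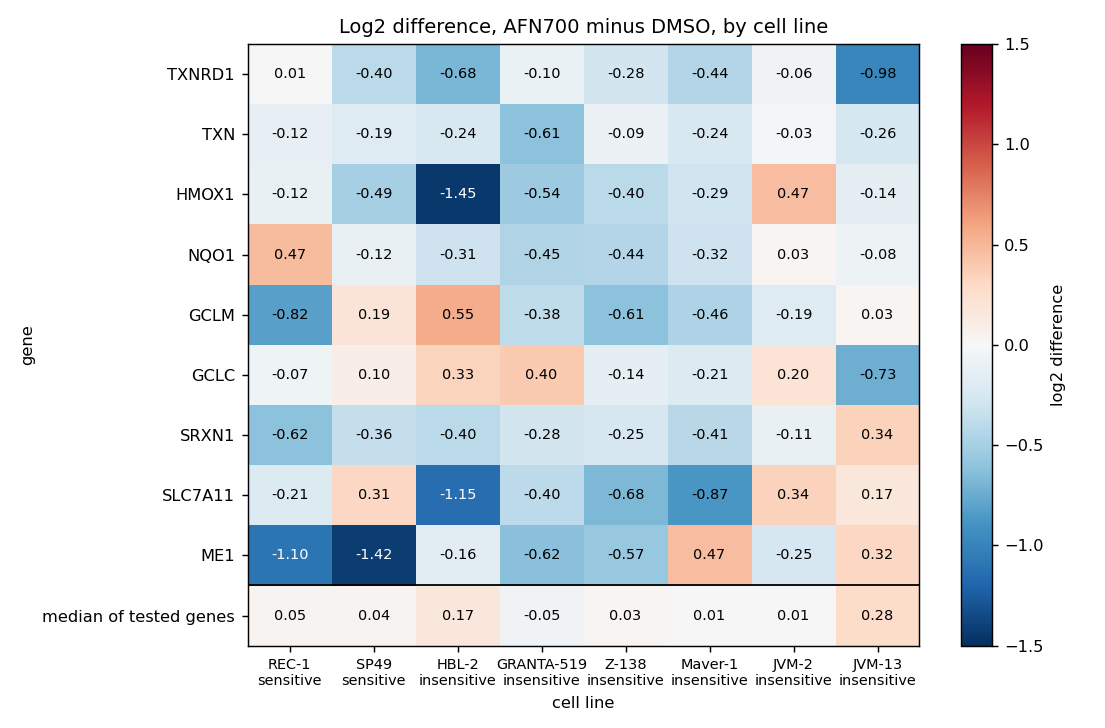
Log2 difference in intensity, AFN700 minus DMSO, for the 9 genes (rows) in each cell line (columns, sensitive lines at the left), with the median of all genes tested in the bottom row. TXN was below 0 in all 8 columns, while the column of JVM-13 held both the lowest TXNRD1 value, -0.98, and a median of all genes of 0.28.

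TXN, TXNRD1 and SRXN1, the 3 of the 9 that belong to the thioredoxin system, had lower values in 7 or 8 of 8 lines. TXN encodes cytosolic thioredoxin, a small protein whose paired cysteines reduce disulfides in other proteins. Its intensity had a lowest value of 1343, a median of 2599 and a highest of 4108 in the AFN700 arrays, against 1533, 2958 and 4916 in the DMSO arrays. The 2 groups overlap widely because the lines differ, but within each line the AFN700 value was the lower one. The log2 difference had its lowest value, -0.61, in GRANTA-519 and its highest, -0.03, in JVM-2, with a mean of -0.22 ± 0.07 (limma SE over 8 lines), equal to a ratio of 0.858. Of all genes tested, 51 (0.414%) were lower in 8 of 8 lines, and TXN was the one among the 9. An exact 2-sided sign-flip test over the 8 lines gave p = 0.00781, the smallest it allows, and an adjusted p of 0.326 over all genes. With limma the adjusted p was 0.487. The second TXN probe set was lower in 8 of 8 lines as well, with a mean log2 difference of -0.25 ± 0.07. An exact p under 0.05 on the lower side was found for TXN, TXNRD1 and SRXN1, as for 2.16% of all genes tested.

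TXNRD1 encodes the cytosolic thioredoxin reductase, a selenoprotein that returns thioredoxin to its reduced form with electrons from NADPH. Intensities had a lowest value of 1566, a median of 1916 and a highest of 2359 with AFN700, and of 1629, 2709 and 3399 with DMSO. The treated arrays thus spanned a narrower range, with an SD over lines of 252 with AFN700 against 610 with DMSO. The log2 difference was -0.37 ± 0.11 (SE), a ratio of 0.776, with an adjusted p of 0.466 by limma. It was below 0 in 7 of 8 lines, REC-1 being at 0.01, with an exact sign-flip p of 0.0156 and an adjusted p of 0.36 over all genes. JVM-13 had the lowest difference, -0.98, and HBL-2 the next, -0.68. Without JVM-13 the mean was -0.28 ± 0.08, and without both of these lines it was -0.21 ± 0.07. The other TXNRD1 probe set had a mean intensity of 1.1 and was not tested.

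SRXN1 encodes sulfiredoxin, which repairs peroxiredoxins that have been over-oxidised by peroxide. It had intensities of 73.2, 148 and 354 (lowest, median and highest) with AFN700, against 98.6, 174 and 382 with DMSO. It was lower with AFN700 in 7 lines and higher in JVM-13, by 0.34. The mean log2 difference was -0.26 ± 0.15 (SE), with an adjusted p of 0.65 by limma. The exact sign-flip p was 0.0391, and 0.445 after adjustment over all genes. Without JVM-13 the mean was -0.35 ± 0.12, and SRXN1 and TXN were then lower in 7 of 7 lines, as were 2.01% of all genes tested. In these 7 lines the differences ran from -0.62 in REC-1 to -0.11 in JVM-2.

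The genes of glutathione synthesis did not share a direction from line to line. SLC7A11 encodes the light chain of the cystine importer xCT, which brings in the cystine that limits glutathione synthesis. Its intensities were 26.6, 305 and 424 (lowest, median and highest) with AFN700, and 44.5, 350 and 501 with DMSO. It was lower in 5 lines, from -1.15 in HBL-2 and -0.87 in Maver-1 to -0.21 in REC-1, and higher in SP49 (0.31), JVM-2 (0.34) and JVM-13 (0.17). The mean was -0.31 ± 0.19 (SE), adjusted p = 0.673 by limma, and -0.19 ± 0.18 without HBL-2. Of its other 2 tested probe sets, one had a mean of -0.70 ± 0.29 and the other -0.37 ± 0.19. The 3 shared a sign in 3 of 8 lines only, GRANTA-519, Z-138 and Maver-1. The probe set at -0.37 had a mean intensity of 17.9 and exceeded the 60th percentile on 3 arrays only, so most of its signs compare levels near background. The other 2 also shared a sign in HBL-2 (-1.15 and -1.78) and JVM-2 (0.34 and 0.28), but not in REC-1, SP49 or JVM-13.

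GCLC and GCLM encode the catalytic and the modifier subunit of glutamate-cysteine ligase, the rate-limiting enzyme of glutathione synthesis. GCLM had intensities of 55.8, 175 and 396 (lowest, median and highest) with AFN700, against 73.6, 226 and 341 with DMSO. Its differences ranged from -0.82 in REC-1 to 0.55 in HBL-2 and were below 0 in 5 lines, with a mean of -0.21 ± 0.17 (SE). The mean was -0.12 without REC-1, -0.32 without HBL-2 and -0.38 ± 0.14 without HBL-2 and JVM-13. Its 3 tested probe sets shared a sign in 4 lines, REC-1, Z-138, Maver-1 and JVM-2, where all were below 0. In JVM-13 they gave 0.03, 1.28 and -0.64, and in HBL-2 0.55, 0.05 and -1.25. SP49 gave 0.19, -0.25 and -0.51, and GRANTA-519 -0.38, -0.16 and 0.64. The third probe set lay below the 60th percentile with AFN700 and DMSO in GRANTA-519 (11.7 and 6.3) and SP49 (5.9 and 9.8). Its AFN700 value in JVM-13, 15.9, lay below it as well, so its differences in these lines have no reliable size. The first 2 were both below 0 in GRANTA-519. In JVM-13, HBL-2 and SP49 the value of GCLM depends on the probe set. GCLC had intensities of 266, 475 and 957 with AFN700, against 292, 455 and 1003 with DMSO. It was lower in 4 lines and higher in 4, with a mean of -0.01 ± 0.14 and a 95% interval from -0.32 to 0.29 (adjusted p = 0.99 by limma). In REC-1 and Z-138 all tested probe sets of both subunits were lower with AFN700.

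**Figure D2:**
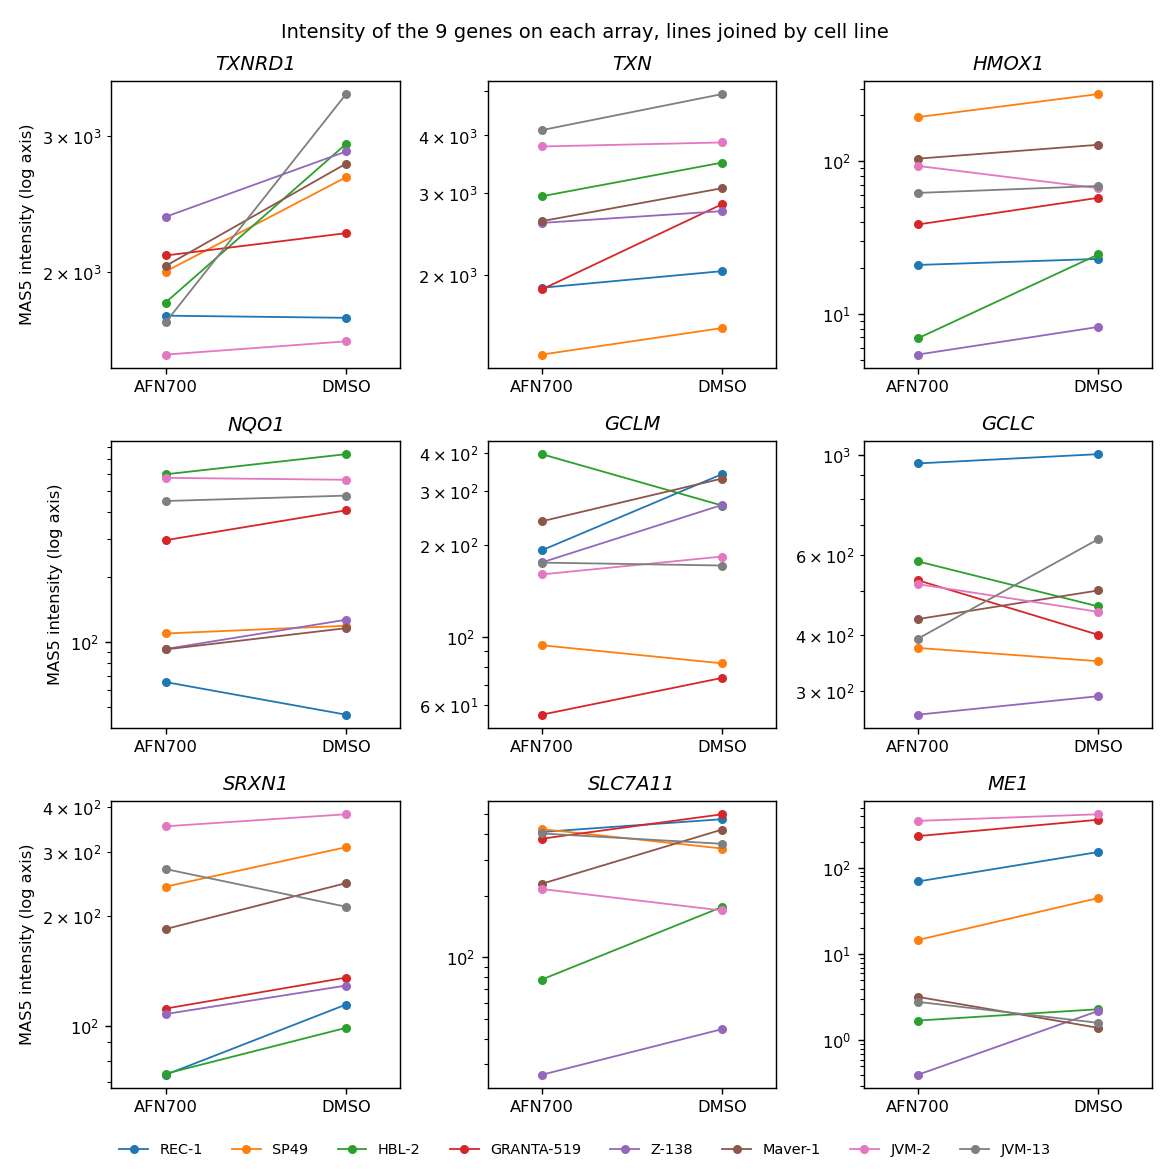
MAS5 intensity (log axis) of each of the 9 genes on the AFN700 array (left) and the DMSO array (right), with the 2 arrays of a cell line joined. Every joined pair of TXN has its AFN700 point below its DMSO point, and ME1 separates with DMSO into 4 lines at 44.7 or more and 4 at 2.3 or less.

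ME1 encodes cytosolic malic enzyme, which makes NADPH from malate, and it was found in only some of the lines. In REC-1 its intensity was 69.6 with AFN700 and 153 with DMSO, and in SP49 it was 14.6 with AFN700 and 44.7 with DMSO. GRANTA-519 had 234 with AFN700 and 361 with DMSO. JVM-2 had the highest levels, 350.5 with AFN700 and 418 with DMSO. These 4 lines were thus all lower with AFN700, by log2 differences of -1.10, -1.42, -0.62 and -0.25 in that order. The second tested probe set had differences of -1.12 in REC-1, -0.59 in GRANTA-519 and -0.24 in JVM-2. In SP49 it was at 4.5 with AFN700 and 10.5 with DMSO, both too low to add to the first, whose AFN700 value of 14.6 was itself below the 60th percentile. In HBL-2, Z-138, Maver-1 and JVM-13 intensities were between 0.4 and 3.2 with AFN700 and between 1.4 and 2.3 with DMSO, below the pseudocount, and their differences have no interpretable size. The mean over all 8 lines, -0.42 ± 0.22 (SE, adjusted p = 0.636 by limma), mixes these 2 kinds of line, and was -0.28 ± 0.22 without SP49.

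**Figure D3:**
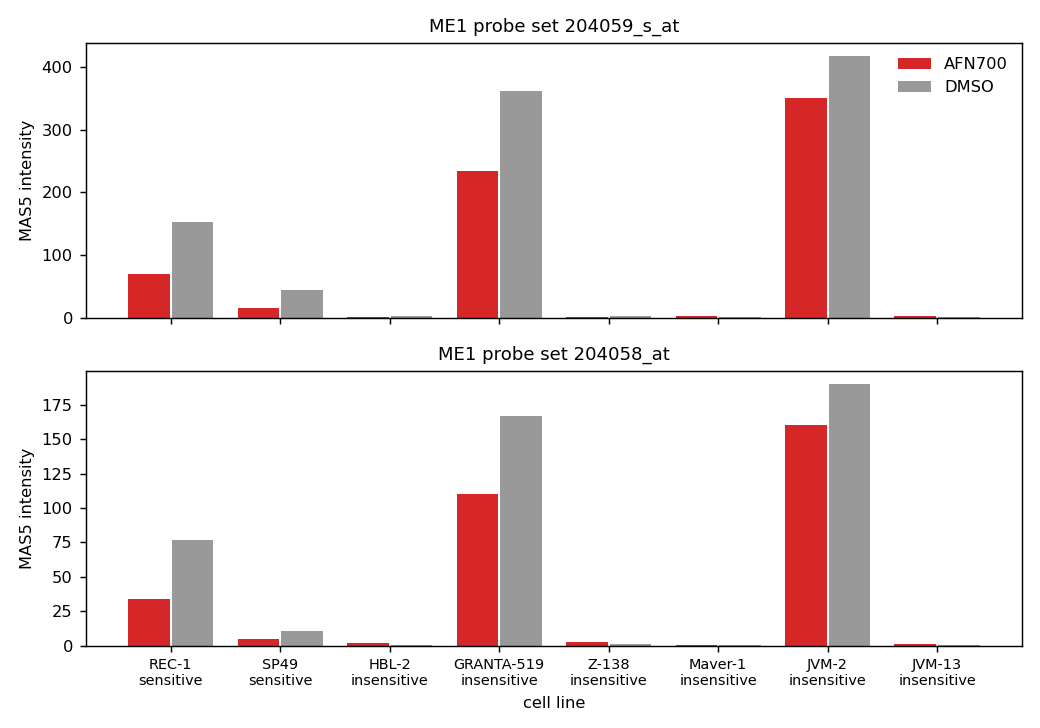
MAS5 intensity of ME1 in each cell line with AFN700 (red) and DMSO (grey), for the 2 probe sets that met the filter. In REC-1, SP49, GRANTA-519 and JVM-2 the red bar is the shorter one for both probe sets, and the other 4 lines are near 0.

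NQO1 encodes a quinone reductase that is among the most used reporters of NRF2 activity. Intensities were 65.5, 203 and 597 (lowest, median and highest) with AFN700, against 46.3, 267 and 740 with DMSO. NQO1 was lower in 6 lines, between -0.45 in GRANTA-519 and -0.08 in JVM-13, and higher by 0.47 in REC-1 and 0.03 in JVM-2. The mean was -0.15 ± 0.14 (SE), adjusted p = 0.783 by limma, and -0.24 ± 0.14 without REC-1. The other 2 probe sets had means of -0.35 ± 0.18 and -0.39 ± 0.22. The 3 differed most in HBL-2, at -0.31, -1.28 and -1.48, where the actin ratio also differed most between the 2 arrays, and the part of RNA integrity was not tested. They had the same sign in 6 of 8 lines.

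HMOX1 encodes heme oxygenase 1, which breaks heme down to biliverdin, iron and carbon monoxide and is repressed by BACH1. Its intensities were 5.4, 50.2 and 195 (lowest, median and highest) with AFN700, against 8.2, 62.1 and 276 with DMSO. It was lower in 7 of 8 lines and higher by 0.47 in JVM-2. In REC-1, HBL-2 and Z-138, however, both arrays lay below the 60th percentile, so 3 of the 7 lower values compare levels near background. Of the lines above it, SP49 was at -0.50, GRANTA-519 at -0.54, Maver-1 at -0.30 and JVM-13 at -0.14. The mean was -0.37 ± 0.20 (SE), adjusted p = 0.639 by limma, with an exact sign-flip p of 0.0703. HBL-2, at 6.9 with AFN700 and 24.5 with DMSO, weighed most on this mean, which was -0.22 ± 0.17 without it. In all, 4 of the 9 genes, TXNRD1, TXN, HMOX1 and SRXN1, were lower in at least 7 of 8 lines, as were 4.11% of all genes tested. With NQO1 and ME1 added, 6 were lower in at least 6 of 8 lines, as were 14.1% of all genes. For ME1 these lines include HBL-2 and Z-138, where both values lay below the pseudocount.

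**Figure D4:**
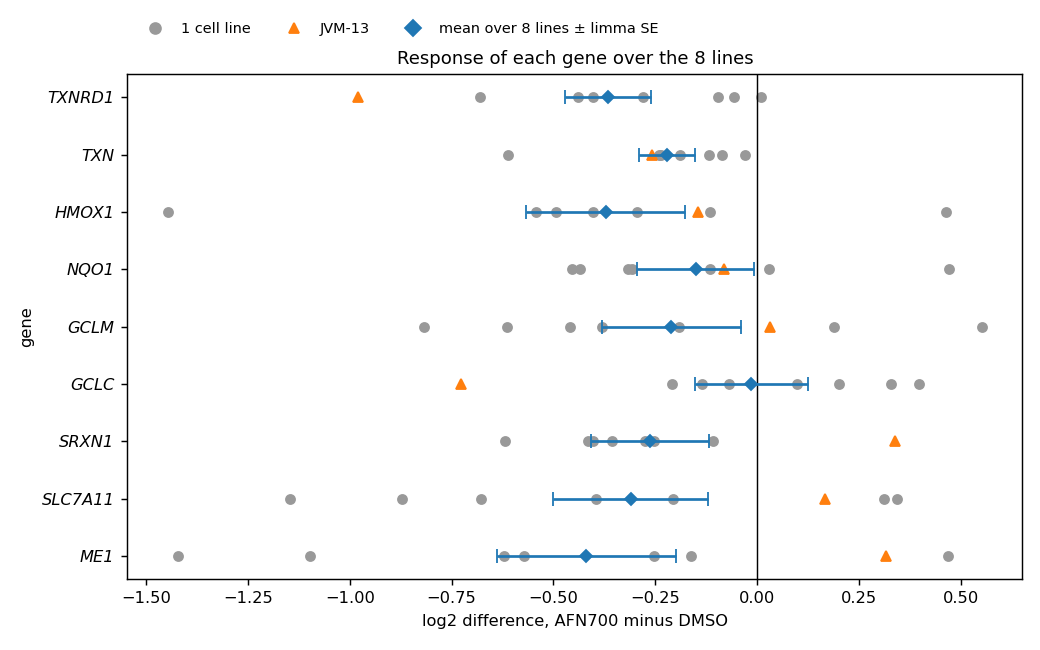
Log2 difference (AFN700 minus DMSO) of each of the 9 genes: grey points are single lines, orange triangles are JVM-13, and blue diamonds with bars are the mean over 8 lines with its limma SE. TXN and TXNRD1 have the shortest bars, 0.07 and 0.11, and JVM-13 lies at the low end for TXNRD1 and GCLC but above 0 for SRXN1, SLC7A11, GCLM and ME1.

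Read line by line, Z-138 held the most uniform pattern. There, 9 of the 9 genes were lower with AFN700, where 45.1% of all genes were, and their median was -0.40 against 0.03 over all genes. ME1 was among them at intensities under the pseudocount, and HMOX1 at 5.4 with AFN700 and 8.2 with DMSO, below the 60th percentile. The difference of TXN there was small, -0.085. In Maver-1 it was 8 of 9 (49% of all genes), with a median of -0.32 against 0.01. The actin ratio in Maver-1 was 18.8 with AFN700 and 10.3 with DMSO, and its part was not tested. Over the same pairs of arrays NFKBIA, an NF-kB target whose product holds that factor in the cytoplasm, had a log2 difference of -0.11 in Z-138 and 0.01 in Maver-1. TNFAIP3, another NF-kB target, had -0.05 in Z-138 and 0.06 in Maver-1. Z-138 gave -0.26 for RELB, -0.19 for NFKB2 and -0.09 for ICAM1, other NF-kB genes kept as a check of the inhibitor. Maver-1 gave 0.18, 0.06 and 0.07 for the same genes in that order. EBI3, another such gene, lay below the pseudocount on all arrays of both lines. Whether the lower values of the NRF2 and thioredoxin genes there depend on NF-kB was not tested.

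In GRANTA-519, 8 of the 9 genes were lower (55% of all genes), with a median of -0.40 and NFKBIA at -1.28. In HBL-2, 7 were lower (39.1%), with a median of -0.31 and NFKBIA at -1.25. The sensitive lines had 7 lower genes in REC-1 (45.1%) and 6 in SP49 (44.3%), with medians of -0.12 and -0.19, while NFKBIA was at -1.31 and -1.63. JVM-2 had 5 lower (48.5%) and a median of -0.03, with NFKBIA at -0.92. JVM-13 had 5 lower (38.7%) and a median of -0.08, with NFKBIA at 1.47. The median log2 difference of all genes tested was then subtracted within each line. The number of lower genes became 7 in JVM-13, by GCLM and SLC7A11, and 8 in REC-1, by TXNRD1, and stayed the same in the other 6 lines. ME1 in REC-1 (1.02% of all genes) and SLC7A11 in HBL-2 (4.46%) were at least 2-fold lower. So were ME1 in SP49 (1.32%), where the AFN700 value lay below the 60th percentile of its array, and HMOX1 in HBL-2, where both did, and these 2 have no reliable size.

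The sensitivity class poses the question whether these genes responded differently in the 2 kinds of line. In the sensitive lines 6 of the 9 had a mean below 0 (43.8% of all genes), from -1.26 for ME1 to 0.18 for NQO1, and in the insensitive lines 9 of 9 did (38.5%), from -0.43 for SLC7A11 to -0.02 for GCLC. No gene passed limma's adjusted threshold in either class or in the test of the difference (0% called in each). At an unadjusted p under 0.05 limma gave 2.85% of genes in the sensitive lines, 6.04% in the insensitive lines and 1.48% for the difference. Of the 9, ME1 was among those lower in the sensitive lines (0.65% of all genes), and TXNRD1 and TXN among those lower in the insensitive lines (1.41%). For the difference, 3 of the 9 were below 0 (53.9% of all genes), and ME1 had an unadjusted p under 0.05 on that side (0.39%). TXN, HMOX1, SRXN1 and ME1 were lower with AFN700 in both sensitive lines, as were 23.8% of all genes. ME1 had the largest difference in response between the classes, -1.12 ± 0.42 (SE, sensitive minus insensitive, adjusted p = 0.9997 by limma), with a mean of -1.26 ± 0.36 in the sensitive lines and -0.14 ± 0.21 in the insensitive lines. The insensitive mean includes the 4 lines in which ME1 lay below the pseudocount. The class difference of ME1 and its unadjusted p rest on the same values, so they cannot decide whether the classes differ. TXNRD1 was at -0.20 ± 0.21 in the sensitive and -0.42 ± 0.12 in the insensitive lines, a difference of 0.22 with a 95% interval from -0.31 to 0.76. For TXN the difference was 0.09, with an interval from -0.27 to 0.45. Without JVM-13 the insensitive mean of TXNRD1 was -0.31 ± 0.10, and without HBL-2 as well it was -0.22 ± 0.09.

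The levels under DMSO were then compared, before any inhibitor acted. TXN was lower in the sensitive lines, at 2035 in REC-1 and 1533 in SP49, than in every insensitive line, where it lay between 2744 in Z-138 and 4916 in JVM-13. The log2 difference, sensitive minus insensitive, was -0.95 ± 0.23 (SE), with an adjusted p of 0.512 by limma. An exact test over the 28 splits of 8 lines into 2 and 6 gave p = 0.0357 (2-sided, unadjusted), the smallest it allows. Both sensitive lines lay below all insensitive lines for 3.49% of the genes tested. The second TXN probe set gave -1.16 ± 0.31. Without JVM-13 the difference of the first was -0.85 ± 0.17.

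NQO1 was also lower in the sensitive lines, at 46.3 in REC-1 and 119 in SP49, but Maver-1 at 116 and Z-138 at 127 overlapped with SP49. The highest levels were 740 in HBL-2, 563 in JVM-2, 476 in JVM-13 and 407 in GRANTA-519. The log2 difference was -2.08 ± 0.79 (SE, adjusted p = 0.861 by limma, exact p = 0.0714). The other 2 probe sets of NQO1 gave -1.88 ± 0.72 and -1.90 ± 0.77. For the remaining 7 genes the 2 classes overlapped. Of the whole table limma called 1 gene in this comparison (0.00813%), which was not among the 9. At an unadjusted p under 0.05 it gave 5.7% of genes, and TXN and NQO1 were among the 2.75% on the lower side. In all, 4 of the 9 genes had a lower mean in the sensitive lines, as did 45.1% of all genes.

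Over the lines the DMSO levels spanned very different ranges, each given as the highest over the lowest line. For TXNRD1 the span was 2.09-fold, from JVM-2 to JVM-13, and for TXN 3.21-fold, from SP49 to JVM-13. The upper end of both is the DMSO array of JVM-13, whose median level differed from the rest. The next highest lines were HBL-2 at 2931 for TXNRD1 and JVM-2 at 3863 for TXN. GCLC spanned 3.44-fold, from Z-138 to REC-1, SRXN1 3.88-fold, from HBL-2 to JVM-2, and GCLM 4.63-fold, from GRANTA-519 to REC-1. SLC7A11 spanned 11.3-fold, from Z-138 to GRANTA-519, NQO1 16-fold, from REC-1 to HBL-2, and HMOX1 33.7-fold, from Z-138 to SP49. The lowest HMOX1 value lay below the 60th percentile of its array, and ME1 had no measurable lower end. With 1 DMSO array per line the order of neighbouring lines has no error.

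The 9 genes did not vary as one block. Over the 36 pairs of genes the Pearson correlation of DMSO levels across the 8 lines had a median of 0.004 and ran from -0.87 to 0.749. The lowest value, for TXNRD1 and ME1, is not readable as a relation, because 4 of the 8 ME1 levels lay below the pseudocount and have no order. HMOX1 and SRXN1 had the highest (rho = 0.762, r = 0.76 without the 2 farthest lines), with 3 of the 8 HMOX1 levels below the 60th percentile, followed by TXN and NQO1 (r = 0.723, rho = 0.714, and r = 0.85 without SP49 and JVM-13). For the responses the median correlation was 0.012, from -0.645 for TXNRD1 and GCLM to 0.703 for HMOX1 and SLC7A11. The last of these had r = 0.079 without HBL-2 and JVM-2, on which it therefore rests. All such pairs share the same arrays and their scaling.

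By the rule for likeness, the genes whose responses ran most like that of TXN over the 8 lines were MYH9, nonmuscle myosin heavy chain (r = 0.992, and 0.995 without JVM-13), and the small heat shock protein gene HSPB1 (0.932 and 0.967). For TXNRD1 they were MUC5AC (0.993 and 0.986) and the vesicle protein gene VAMP2 (0.990 and 0.980). SRXN1 ran most like PLPBP (0.989 and 0.957) and IDH3A (0.966 and 0.867), HMOX1 like EIF2S2 (0.950) and ARL6IP4 (0.946), and NQO1 like ZC3H4 and RAB3A (0.949 each). GCLM ran most like CYTIP (0.989) and HOXC10 (0.978), GCLC like LMBRD1 (0.978) and FAM117B (0.976), SLC7A11 like EMID1 (0.975) and ATL3 (0.944), and ME1 like RILPL2 (0.961) and ABHD6 (0.946). None of these was another of the 9 genes, and each value is one of the 2 highest among the 12305 genes tested, over lines that share their arrays. For HMOX1 and ME1 they include the lines near background.

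Genes around the pathway were then read from 8 lists of redox genes. Of 115 tested entries 65 (56.5%) had a mean below 0, against 37.1% of all genes, and none passed the adjusted threshold in either direction. Without JVM-13 and HBL-2 it was 69 (60%), against 47.5% of all genes. The counts of the single lists are over 8 lines and stand against the same 37.1%. Among 14 tested regulators, 8 were below 0 and 6 above, with a median of -0.04. NFE2L2, which encodes NRF2 itself, was at -0.20 ± 0.12 (SE) and lower in 6 of 8 lines. MAFF, a small MAF partner, was at -0.49 ± 0.27, KEAP1 at -0.06 ± 0.21 and BACH1 at -0.05 ± 0.17. BACH2, a B-cell relative of BACH1, was at 0.36 ± 0.16 and higher in 6 lines, and BTRC, part of a second ligase for NRF2, at 0.19 ± 0.17. The 6 lines include JVM-2 (0.77) and JVM-13 (0.61), where BACH2 lay below the 60th percentile on both arrays. Without JVM-13 and HBL-2, MAFF was at -0.90, BTRC at 0.43 and BACH1 at 0.05. Both means of MAFF include REC-1, Z-138 and Maver-1, where it lay below the 60th percentile on both arrays. Its differences in these lines have no reliable size. In the lines above it, MAFF was at -0.55 in SP49, -0.77 in GRANTA-519 and -0.46 in JVM-2, but at 0.35 in HBL-2 and 1.18 in JVM-13.

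Of 19 other thioredoxin and peroxiredoxin genes, 7 were below 0 and 12 above (median 0.05). GLRX3, a glutaredoxin that handles iron-sulfur clusters, was lower in 8 of 8 lines, at -0.29 ± 0.10 (adjusted p = 0.508 by limma). TXN2, the mitochondrial thioredoxin, was higher in 8 of 8 lines (1.98% of all genes), at 0.30 ± 0.17, but JVM-13 gave 1.64 and the other 7 lines 0.01 to 0.29. TXNDC12 was at 0.23 ± 0.11 and GLRX at 0.14 ± 0.08. The 5 tested peroxiredoxins, the main users of thioredoxin, lay on both sides of 0: PRDX1 at -0.12, PRDX3 at -0.02, PRDX6 at 0.004, PRDX4 at 0.04 and PRDX2 at 0.09. Without JVM-13 and HBL-2, TXN2 was at 0.09, TXNDC12 at 0.13 and GLRX3 at -0.19. Each peroxiredoxin mean then lay on the other side of 0: PRDX1 at 0.006, PRDX3 at 0.015, PRDX6 at -0.033, PRDX4 at -0.071 and PRDX2 at -0.103. Their signs over 8 lines thus rest on these 2 lines.

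Of 17 glutathione genes 13 were below 0 (median -0.11). GSR, glutathione reductase, was at -0.24 ± 0.10 and lower in 6 lines. CHAC1, which degrades glutathione, was at -0.48 ± 0.22, MGST2 at -0.37 ± 0.20 and GSTM3, with a mean intensity of 12, at -0.40 ± 0.19. Of 12 NADPH-producing genes 7 were below 0 (median -0.045). TALDO1, transaldolase of the pentose phosphate pathway, was lower in 8 of 8 lines, at -0.28 ± 0.09 (adjusted p = 0.466 by limma), from -0.59 in GRANTA-519 to -0.01 in REC-1. PGD, the enzyme of that pathway that makes its second NADPH, was at -0.40 ± 0.16 and lower in 5 lines, and MTHFD2 at -0.24 ± 0.10 in 6, while IDH1 was at 0.23 ± 0.12. Without JVM-13 and HBL-2, GSR was at -0.14, PGD at -0.19, MTHFD2 at -0.37 and IDH1 at 0.15.

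The remaining lists were mixed. Of 11 heme and iron genes 5 were below 0 (median 0.04), with HMOX2 at -0.27 ± 0.17, BLVRA at -0.22 ± 0.19, FECH at 0.20 ± 0.13 and PCBP1 at -0.09 ± 0.11. Without JVM-13 and HBL-2, HMOX2 was at -0.08, BLVRA at -0.47 and PCBP1 at -0.05. Of 14 detoxification genes 7 were below 0 (median -0.001). Among them PIR, pirin, was at -0.63 ± 0.40, with -2.04 in Maver-1, -1.77 in GRANTA-519 and 2.47 in JVM-13, ABCC4 at -0.33 ± 0.18, AKR7A2 at 0.40 ± 0.24 and ABCC2 at 0.27 ± 0.20. The mean of AKR7A2 came from JVM-13 (2.02) and HBL-2 (1.22), and without them it was -0.001, while PIR was then at -1.05. Of 14 cystine transport and ATF4 genes 10 were below 0 (median -0.11), with the glutamine transporter gene SLC1A5 at -0.45 ± 0.23, DDIT3 at 0.32 ± 0.17, VLDLR at -0.30 ± 0.20 and CEBPG at -0.22 ± 0.15. Without the same 2 lines DDIT3 was at 0.11 and CEBPG at -0.02. Of 14 superoxide and selenoprotein genes 8 were below 0 (median -0.06), among them SOD2, a known NF-kB target, at -0.16 ± 0.08, PPIF at -0.22 ± 0.11 and CYBA at -0.34 ± 0.22, while SEPHS2 was at 0.12 ± 0.08. CYBA was at -0.12 without these lines. By comparison, 6 of 6 NF-kB genes kept as a check of the inhibitor had a mean below 0 (median -0.61). TNFAIP3 was at -0.90 ± 0.28, EBI3 at -1.15 ± 0.41 and NFKBIA at -0.63 ± 0.29. ICAM1 was at -0.60 ± 0.36, or -1.03 without JVM-13 and HBL-2, RELB at -0.39 ± 0.25 and NFKB2 at -0.09 ± 0.23. In JVM-13, however, all 6 were higher with AFN700, from 0.30 for TNFAIP3 to 1.98 for ICAM1.

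**Figure D5:**
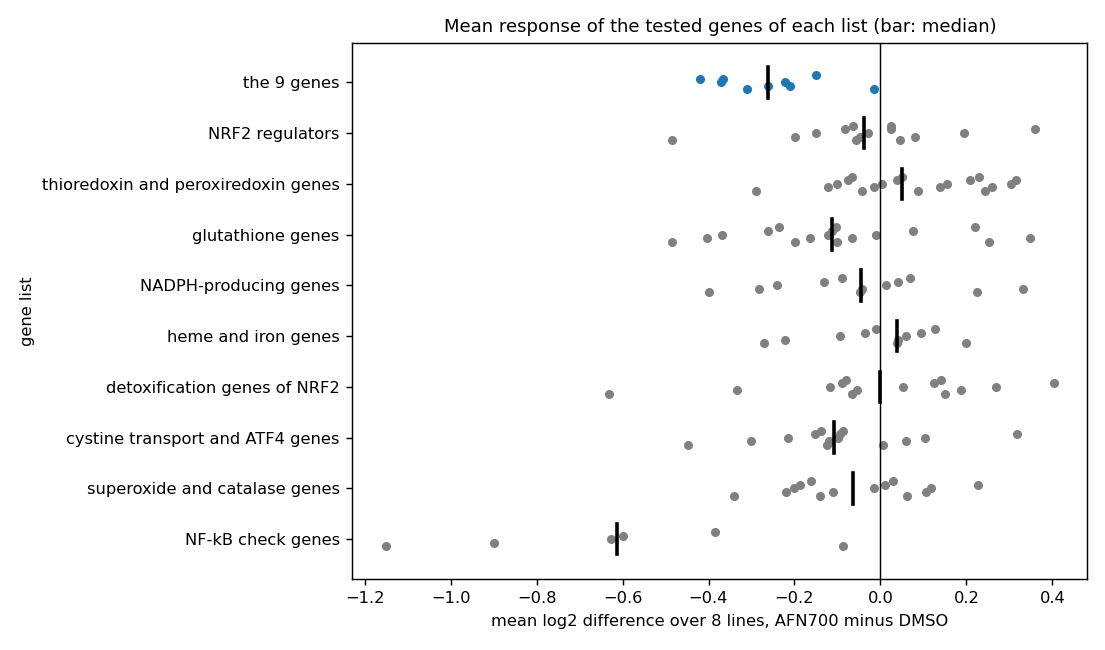
Mean log2 difference over 8 lines (AFN700 minus DMSO) of the 9 genes (blue) and of the tested genes of each other list (grey points, with a black bar for the list's median). The median of the 9 genes was -0.26 and those of the 8 other redox lists lay between -0.11 and 0.05, while the NF-kB genes at the bottom had a median of -0.61.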

How the data were processed

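RNA of 8 cell lines, each with 1 AFN700 and 1 DMSO array, was measured on 16 Affymetrix arrays. The authors' files hold linear intensities per probe set, made with MAS5 per the submitters' processing notes, which name no version. Each deposited column has a mean of 150.0 once 2% of its values are trimmed at each end. Detection calls were not used, so low intensities may be background, and the number of arrays limits the precision. The cell line, named in the labels, pairs the arrays.

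Of 54675 probe sets, 41097 have 1 gene in the platform table, 1801 have several and 11777 are not in it and were left unnamed. Gene symbols follow the RefSeq table of GRCh38.p14, joined on Entrez identifiers. The probe set with the highest mean represented its gene. Intensities were taken to log2(intensity + 3.3), where 3.3 is the 25th percentile of all values, which understates changes of low genes. limma 3.58.1 in R 4.3.3 (lmFit and eBayes with a trend) was run on all 12305 genes with cell line as a fixed term, with 1 AFN700 term (7 residual degrees of freedom) or 1 per sensitivity class (6), and on the 8 DMSO arrays (6). Probe sets of the 9 genes were also fitted singly, among all probe sets past the filter. Adjusted p-values are Benjamini-Hochberg over all genes tested, and SE is the moderated standard error. P-values measure the spread between lines. Exact sign-flip tests over lines used all 256 sign patterns. On simulated arrays for the response over 8 lines, 85% of genes changed by 1 on the log2 scale and 99% of those changed by 2 were recovered among 12305 genes. There, 10 unchanged genes were called as well. The simulated spread was set from each gene's median absolute difference over lines, which gives outlying lines such as JVM-13 little weight. These percentages check the fit and do not give its power on the real arrays. The alternatives varied the pseudocount, the filter, the probe set, the normalization, the trend, the block, the threshold and the lines. The 9 genes, the lists of other genes, the tests and the alternatives were chosen with earlier results of these data known, so counts over the 9 genes are descriptions. Genes named besides the 9 were the 4 of smallest p per list, with RELB and NFKB2 to complete the NF-kB list, and the 2 most alike per gene. KEAP1, BACH1 and the 5 peroxiredoxins were picked for their role after their values were seen. The means of listed genes without JVM-13 and HBL-2 were added at that stage too. Figures were drawn with matplotlib 3.10.9.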

Additional observations from a re-analysis of the deposited data

Results flagged for a closer look

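Among 27 sets of 8 values, 2 held a value far from the rest, and chance gives about 1 in 20. The log2 difference of TXN in GRANTA-519, -0.612, lay apart from the other 7 lines, which were between -0.26 and -0.03. Without GRANTA-519 the mean of TXN was -0.17. The DMSO log2 level of SLC7A11 in Z-138, 5.579, equal to an intensity of 44.5, lay below that of the other 7 lines.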

How the results depend on the processing

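Over 8 lines the number of genes past the adjusted threshold of 0.05 by limma was 0, and it ran from 0 to 10 when 1 line was left out, with 10 without JVM-13. It was 37 without JVM-13 and HBL-2, and 8 with arrays centred on the median and without JVM-13, a setting chosen after seeing the data. Over 8 lines none of the 9 genes passed in any setting run, the lowest adjusted p being 0.156 for TXNRD1 and 0.164 for TXN. In the sensitive lines 5 genes passed without JVM-13 and HBL-2, and the median of the 9 was -0.266 after quantile normalization. With 1 line left out it ran from -0.198 to -0.119, reached without SP49. The paired design rests on the cell line: without the replicate block 0 genes passed and the means of the 9 were equal, with an SE of 0.246 in place of 0.069 for TXN. GCLC turned above 0 over 8 lines at 0.021 with the probe set of highest variance, 0.048 without JVM-13 and HBL-2 and 0.071 centred without JVM-13, and ran from -0.073 to 0.088 with 1 line left out. In the insensitive lines it was 0.074, 0.064 and 0.095 in the same settings, from -0.108 to 0.117. NQO1 in the sensitive lines ran from -0.115 without REC-1 to 0.472 without SP49, where 1 sensitive line remains and is assumed to vary like the others. Leaving out 1 line gave exact sign-flip p-values from 0.0156 (JVM-2) to 0.141 for HMOX1, 0.0313 (REC-1) to 0.375 for NQO1, 0.375 to 0.984 for GCLC and 0.0156 (JVM-13) to 0.0781 for SRXN1, whose p stayed under 0.05 on leaving out JVM-13 and no other line. For the DMSO levels the count of 1 gene became 3 with a pseudocount of 16, 5 with no filter, 0 with the stricter filter, 0 with the mean of probe sets, 2 with the probe set of highest variance, 8 without the trend, 2 at a threshold of 0.10, 0 without JVM-13 and HBL-2, and 0 to 46 with 1 line left out, 46 without SP49. The median of the 9 ran from -0.557 without SP49 to 0.274 without JVM-2. The stricter filter dropped GCLM, HMOX1, SRXN1 and ME1. The causes of these shifts were not tested. The other 622 values kept their direction and their side of the threshold or, for counts and medians, moved less than the limits set for them.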
